A study of Caenorhabditis elegans with 6 samples.

Results

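The insulin receptor to DAF-16 pathway was followed through 9 genes, chosen by name as its core components: the receptor gene daf-2, the adaptor gene ist-1, the kinase genes age-1, pdk-1, akt-1, akt-2 and sgk-1, the phosphatase gene daf-18 and the transcription factor gene daf-16. All 9 were found in the deposited table, which holds counts for 22416 genes, and all 9 were among the 14677 genes that passed the filter on low counts. RNA came from pools of whole Caenorhabditis elegans of the strain CL2006 (genotype unc-54p::Abeta), whose body wall muscle makes human amyloid-β peptide from the promoter of the myosin gene unc-54, so both groups carried the transgene. Worms were synchronized, kept at 20 °C and fed EV bacteria, which carry the empty RNAi vector, up to the L4 larval stage. From then on 3 pools stayed on EV bacteria (EV control, also labelled untreated) and 3 were fed nol-56 RNAi bacteria (nol-56 RNAi), all with daily transfers away from progeny and harvest on day 6 of adulthood. The comparison asks how the loss of NOL-56, a nucleolar protein, alters gene expression in worms under constant proteotoxic load. Whole worms hold every tissue, and fewer cells of a type and less RNA per cell cannot be told apart in such pools.

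In this pathway, insulin-like peptides bind the receptor tyrosine kinase DAF-2, which acts through the phosphoinositide 3-kinase AGE-1 to make the membrane lipid PIP3. PIP3 recruits the kinases PDK-1, AKT-1 and AKT-2. PDK-1 activates the AKT kinases, which phosphorylate the FOXO transcription factor DAF-16 and keep it out of the nucleus. The lipid phosphatase DAF-18 removes PIP3 and so opposes AGE-1. In worms the pathway is known for its control of dauer formation, lifespan, stress resistance and protein homeostasis, and lowered DAF-2 signalling lessens the toxicity of aggregating peptides in worm models. It acts largely through protein phosphorylation and localization, which transcript counts do not measure.

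Total counts per library were 21138955 to 34841215. The targeted gene nol-56 fell in the fit by 3.85 on the log2 scale, from 263 ± 8.66 to 18.2 ± 2.59 CPM (counts scaled to a common library total with TMM factors; mean ± SD, n = 3 libraries per group), so the libraries matched their labels. Most of the transcriptome moved: 47.2% of the tested genes were higher and 40.8% lower at an adjusted p under 0.05 (quasi-likelihood test of edgeR, two-sided, adjusted over all tested genes by the Benjamini-Hochberg method, as is every adjusted p here unless another tool is named). The median log2 fold change of all tested genes was 0.16. Other scalings moved that median by −0.14 (RLE factors) or by 0.25 (upper-quartile factors).

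Transcripts of the pathway went in opposite directions. On nol-56 RNAi 5 of the 9 were lower (daf-2, age-1, pdk-1, akt-1 and daf-18), 3 were higher (ist-1, akt-2 and sgk-1), and daf-16 did not pass the threshold. The largest fall was that of age-1, to below 50% of its control level with TMM factors, and the largest rise that of sgk-1. With upper-quartile factors age-1 fell by less (log2 fold change −0.83) and stayed above 50%. In 8 of the 9 the groups did not overlap, as in 88.0% of all tested genes. The median log2 fold change of the 9 was −0.28, and the counts in each direction are to be read against the shares of all genes given above. With upper-quartile factors the fall of akt-1 no longer passed (−0.03, adjusted p = 0.500) and daf-16 was called higher; with RLE factors daf-16 was called lower.

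**Figure D1:**
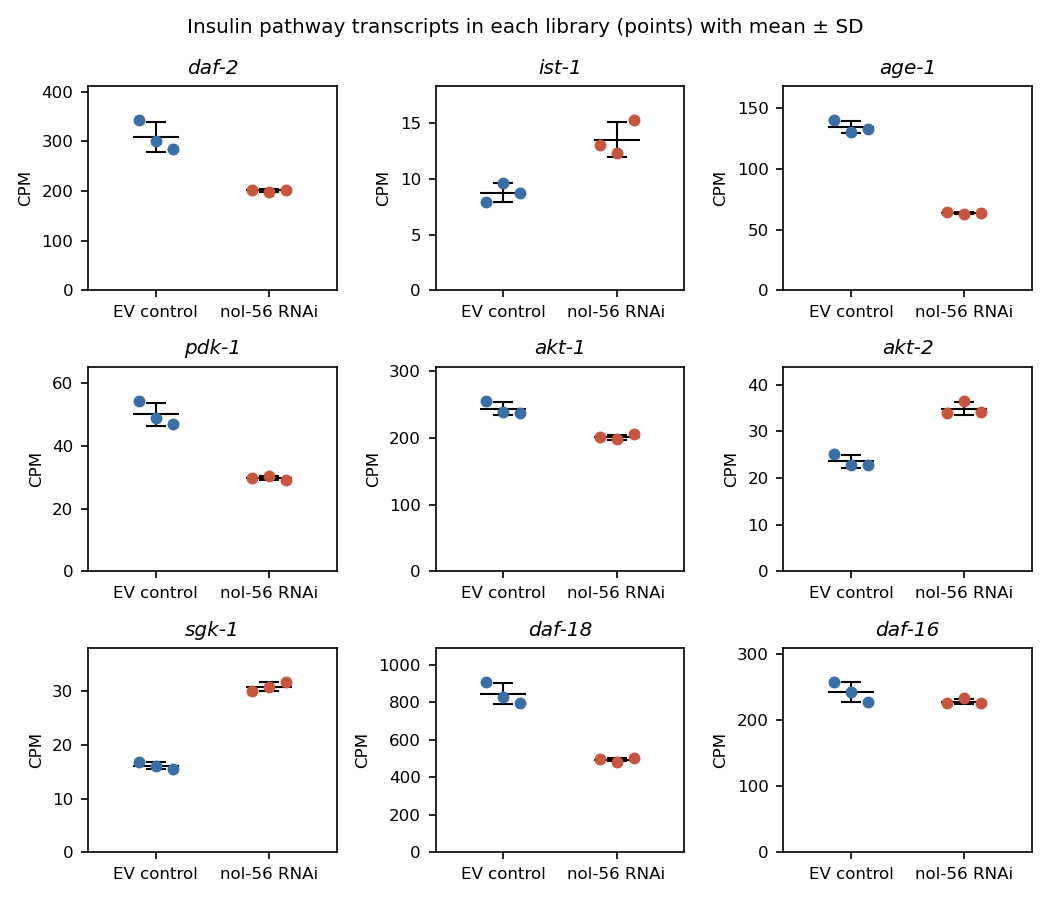
CPM of each of the 9 genes in every library (points, 3 EV control in blue and 3 nol-56 RNAi in red), with the mean and SD as bars and each vertical axis starting at 0. The groups are apart in every panel but that of daf-16, where the nol-56 RNAi libraries, at 225 to 233 CPM, lie within and just below the control range of 227 to 258 CPM.

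At the top of the pathway, the receptor and its adaptor moved apart. daf-2 (WBGene00000898, chromosome III, 2994514 to 3040846, minus strand) encodes the only insulin and IGF-1 type receptor kinase of the worm. Its level was 343, 299.8 and 284 CPM in EV control libraries 1 to 3 and 203, 198 and 203 CPM in nol-56 RNAi libraries 1 to 3. The lowest control library was above every nol-56 RNAi library, and the control spread was the wider, with a coefficient of variation of 9.81% against 1.29%. The fall was 1.53-fold (log2 fold change −0.62, SE 0.05, adjusted p = 2.75e-10). ist-1 (WBGene00002163, chromosome X, 7126648 to 7139666, plus strand), the homolog of mammalian insulin receptor substrates, stood at 7.93, 9.58 and 8.74 CPM in EV control and at 12.99, 12.28 and 15.2 CPM in nol-56 RNAi. Every nol-56 RNAi library was above every control library, and the rise was 1.53-fold (log2 fold change 0.61, SE 0.09, adjusted p = 2.85e-06). ist-1 had the fewest reads of the 9, 184 to 330 per library, and the widest spread on nol-56 RNAi, 11.5%.

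The lipid kinase and the phosphatase that opposes it both fell. age-1 (WBGene00000090, chromosome II, 11519328 to 11527054, minus strand) encodes the catalytic subunit of the phosphoinositide 3-kinase. It stood at 140.2, 130.5 and 132 CPM in EV control and at 64.7, 63.1 and 63.3 CPM in nol-56 RNAi. The nol-56 RNAi libraries lay within 2 CPM of each other, far below the controls. The fall was 2.11-fold (log2 fold change −1.07, SE 0.04, adjusted p = 5.04e-16), lower than in all but 10.7% of tested genes. daf-18 (WBGene00000913, chromosome IV, 420011 to 425177, minus strand) had the most reads of the 9, 10848 to 27727 per library. Its level was 908, 829.7 and 799 CPM in EV control against 500.3, 484 and 501 CPM in nol-56 RNAi. The groups were well apart, and the fall was 1.71-fold (log2 fold change −0.77, SE 0.05, adjusted p = 7.52e-13).

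The adaptor subunit of the lipid kinase was set beside its catalytic partner. aap-1, which encodes that subunit and is not among the 9, went from 103 ± 3.53 to 103 ± 1.53 CPM (log2 fold change 0.01, SE 0.04, adjusted p = 0.827). It was called lower with RLE factors (−0.13) and with DESeq2 (−0.13), and higher with upper-quartile factors (0.26), library totals (0.10) and genes above 5 CPM alone (0.16). A ratio of 2 genes within a library is free of such scaling. There were 0.756, 0.791 and 0.747 reads of aap-1 per read of age-1 in EV control and 1.61, 1.61 and 1.64 in nol-56 RNAi, a difference of 1.08 in the log2 ratio. The ratio of age-1 to daf-18 reads went from 0.154, 0.157 and 0.166 to 0.129, 0.130 and 0.126, a difference of −0.31, so the kinase transcript fell by more than the phosphatase transcript.

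The protein kinases below PIP3 were split. pdk-1 (WBGene00003965, chromosome X, 1321344 to 1327986, plus strand), whose product phosphorylates and activates the AKT and SGK kinases, stood at 54.2, 48.7 and 47.1 CPM in EV control and at 29.7, 30.4 and 29.1 CPM in nol-56 RNAi. The groups did not overlap, and the fall was 1.68-fold (log2 fold change −0.74, SE 0.06, adjusted p = 4.63e-11). akt-1 (WBGene00000102, chromosome V, 10248905 to 10252845, plus strand) went from 255, 238 and 237 CPM to 201, 198 and 205 CPM. Its fall of 1.21-fold was the smallest of those called (log2 fold change −0.28, SE 0.04, adjusted p = 2.23e-06), although no library of one group reached the range of the other. Its paralog akt-2 (WBGene00000103, chromosome X, 14147700 to 14152070, plus strand) went the other way, from 25.04, 22.9 and 22.7 CPM to 33.9, 36.5 and 34.1 CPM, a rise of 1.49-fold (log2 fold change 0.57, SE 0.06, adjusted p = 5.66e-09).

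sgk-1 (WBGene00004789, chromosome X, 16254842 to 16262122, minus strand) encodes the serum- and glucocorticoid-inducible kinase homolog, which acts with the AKT kinases and also downstream of the TOR complex that contains RICT-1. It stood at 16.8, 16.0997 and 15.5 CPM in EV control and at 30.1, 30.7 and 31.7 CPM in nol-56 RNAi. Control and nol-56 RNAi libraries were well apart, and the rise was 1.92-fold (log2 fold change 0.94, SE 0.06, adjusted p = 1.72e-12). The proportions of the kinase transcripts to each other differed between the groups. There were 10.2, 10.4 and 10.5 reads of akt-1 per read of akt-2 in EV control and 5.92, 5.42 and 6.02 in nol-56 RNAi, a difference of −0.84 in the log2 ratio. sgk-1 reads per akt-1 read went from 0.0657, 0.0675 and 0.0654 to 0.150, 0.155 and 0.154, a difference of 1.21.

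daf-16 (WBGene00000912, chromosome I, 10750498 to 10776703, plus strand), the FOXO transcription factor gene at the end of the pathway, is annotated with 11 transcripts that the counts do not separate. Its level was 258, 243 and 227 CPM in EV control and 226, 233 and 225 CPM in nol-56 RNAi. The ranges overlapped, and the log2 fold change was −0.09 with an SE of 0.05 (adjusted p = 0.0746). Its direction depended on the scaling: it was called lower with RLE factors (−0.23, adjusted p = 0.000251), with DESeq2 (−0.23, adjusted p = 7.65e-05) and without EV control library 3 (−0.15, adjusted p = 0.00278), and higher with upper-quartile factors (0.16, adjusted p = 0.00139). The ratio of daf-2 to daf-16 reads, which no scaling touches, was 1.33, 1.23 and 1.253 in EV control and 0.897, 0.850 and 0.900 in nol-56 RNAi, so that more reads came from the receptor gene than from daf-16 in each control library and fewer in each nol-56 RNAi library. Per exon length daf-2 was below daf-16 in every library, at ratios of 0.548 to 0.591 in EV control and 0.378 to 0.400 in nol-56 RNAi.

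**Figure D2:**
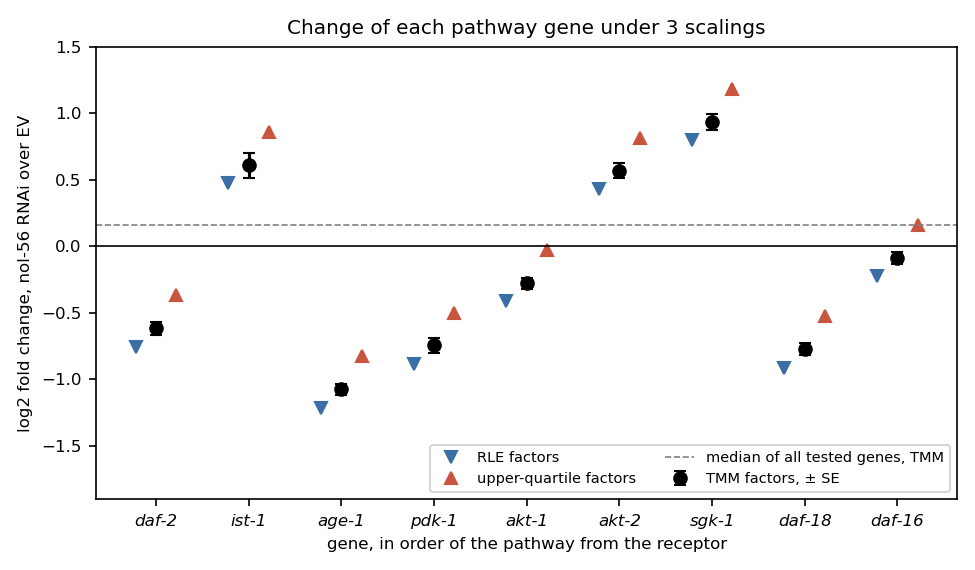
Log2 fold change of each gene, nol-56 RNAi over EV control, with TMM factors (black, bars are the SE) and with RLE (blue) and upper-quartile factors (red); the dashed line is the median of all tested genes, 0.16. A change of scaling shifts all genes together: akt-1 reaches −0.03 and daf-16 changes sign with upper-quartile factors, while the other 7 stay on their side of 0.

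Each of the 5 within-library ratios had groups that did not overlap. Among single tested genes the groups did not overlap in 88.0%, and ratios of other gene pairs were not examined. The genes of each pair changed by unlike amounts in the fit above, so the ratios are not separate evidence. The exact two-sided permutation p was 0.10 for every ratio, also after adjustment over the 5, which is the smallest p that 3 against 3 libraries can give. The ratio differences exceeded the SD within groups, which was 0.0164 to 0.0804 on the log2 scale.

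**Figure D3:**
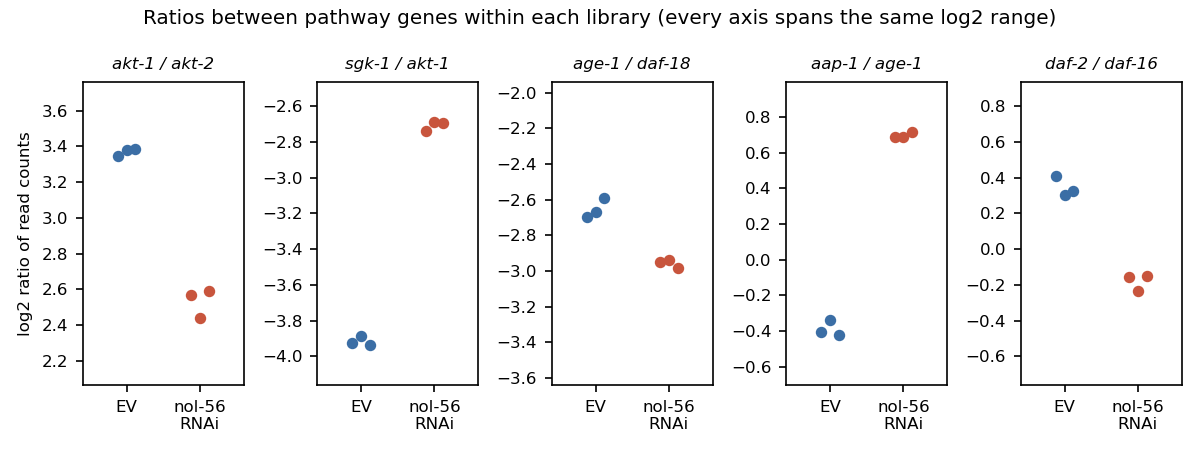
Log2 ratio of the reads of 2 pathway genes in each library (points, EV control in blue and nol-56 RNAi in red), with all axes spanning the same log2 range. The largest shift is that of sgk-1 over akt-1 (1.21) and the smallest that of age-1 over daf-18 (−0.31).

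Per exon length, the 9 transcripts spanned a wide range of abundance. In EV control, RPKM (the CPM value divided by the exon length in kilobases) was 254 ± 16.9 for daf-18, 107 ± 4.37 for akt-1, 65.8 ± 4.19 for daf-16, 37.2 ± 3.65 for daf-2, 34.2 ± 1.30 for age-1 and 20.6 ± 1.55 for pdk-1 (mean ± SD, n = 3). The lowest were akt-2 at 9.88 ± 0.550, sgk-1 at 9.86 ± 0.380 and ist-1 at 2.21 ± 0.207 RPKM. In that order daf-2 and age-1 overlapped, as did akt-2 and sgk-1, and the other neighbours did not. In nol-56 RNAi daf-18 still led with 149 ± 2.90 RPKM, before akt-1 (88.4 ± 1.63), daf-16 (61.9 ± 1.17) and daf-2 (24.3 ± 0.312). sgk-1 (18.9 ± 0.488) then stood above age-1 (16.22 ± 0.224), and akt-2 (14.6 ± 0.595) above pdk-1 (12.27 ± 0.277), with no overlap between neighbours. These gaps were small, at 1.16-fold for sgk-1 over age-1 and 1.19-fold for akt-2 over pdk-1. sgk-1 also came to stand above pdk-1, at 18.9 against 12.27 RPKM, after 9.86 against 20.6 RPKM in EV control. All of these orders depend on the exon length used for each gene, whose error the spread among libraries does not cover. ist-1 stayed lowest at 3.40 ± 0.391 RPKM. Summed over the 9, the level fell from 514 to 577 RPKM in the control libraries to 385 to 392 RPKM, and the part held by daf-18 went from 46.9% to 38.2%.

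**Figure D4:**
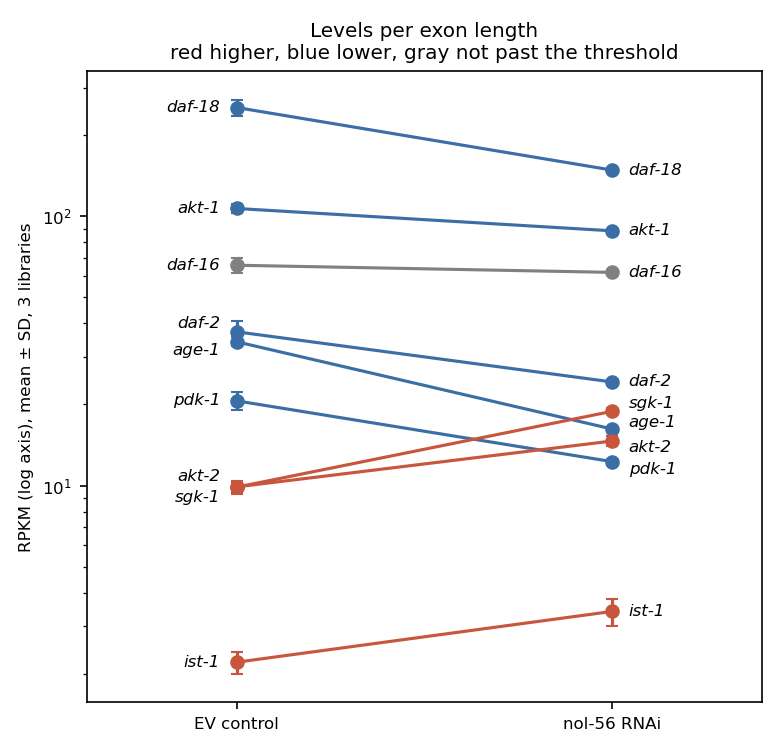
RPKM of the 9 genes in EV control and nol-56 RNAi on a log axis (mean ± SD, 3 libraries each); red lines were called higher, blue lower and gray neither. With the exon lengths used, sgk-1 crosses age-1 and pdk-1, and akt-2 crosses pdk-1, while daf-18, akt-1, daf-16 and daf-2 keep the first places. Under upper-quartile factors the fall of akt-1 is not called and daf-16 is called higher.

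The direction of the pathway genes was set beside features that were not used to choose them; these features were picked after the values had been seen. The 3 that rose, ist-1, akt-2 and sgk-1, all lie on the X chromosome, as does pdk-1, which fell. Of 2195 tested genes on X, 66.7% were higher and 19.8% lower (median log2 fold change 0.75), against 43.8% and 44.5% of the 12468 on autosomes (median 0.01). Of the 5 autosomal pathway genes 4 fell and none rose. The 3 that rose were also the 3 with the lowest levels per length in EV control. With the tested genes divided into 4 equal groups by mean log2 CPM over all libraries, the top group, which holds daf-2, age-1, akt-1, daf-18 and daf-16, had 22.6% higher and 71.5% lower. In the next group, with pdk-1, akt-2 and sgk-1, the shares were 40.5% and 51.9%, and in the one below it, with ist-1, 69.0% and 20.7%.

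Markers of tissues moved in the same libraries, and their part in the pathway's changes was not tested. Their counts are to be read against 47.2% of all tested genes higher and 40.8% lower. In the top of the 4 level groups these shares were 22.6% and 71.5%. All 19 germline and oocyte markers fell (median −1.32), with their summed level going from between 8793 and 9400 CPM in EV control to between 3483 and 3535 CPM in nol-56 RNAi; the chromosome axis gene htp-3 (−2.05) and the RNA helicase gene cgh-1 (−2.02) led them. Of 10 embryo markers 5 had enough reads and all 5 fell, among them vet-6 (−3.62) and sdz-28 (−2.92), and the summed level went from 28.7 to 35.4 CPM down to 4.06 to 4.62 CPM. All 10 body wall muscle markers and all 11 intestine markers rose (medians 1.05 and 0.98), as did 12 of 13 neuron markers (median 0.92, 1 fell) and 5 of 6 pharynx markers (median 1.26). Their sums in EV control and nol-56 RNAi were 2571 to 2738 and 5249 to 5266 CPM for muscle, 3039 to 3250 and 5323 to 5392 CPM for intestine, 359 to 371 and 565 to 573 CPM for neurons, and 106 to 130 and 296 to 298 CPM for pharynx. Of 9 epidermis markers 7 fell and 2 rose (median −1.23, sums of 638 to 705 and 643 to 662 CPM). Among the genes with the smallest p in these lists were unc-27 (1.12) and mlc-3 (1.11) of muscle, cpr-3 (1.41) and cpr-4 (1.15) of intestine, unc-13 (0.89) and unc-64 (0.95) of neurons, and myo-2 (1.44) and myo-1 (1.42) of pharynx. In the epidermis list they were noah-2 (−1.66) and rol-6 (1.11), whose reads may include the rol-6 marker transgene that this strain is known to carry. No marker of these lists was at 0 in all libraries. The 5 pathway genes that fell lay between −1.07 and −0.28, less far than the germline median, though single germline markers ranged from −2.05 to −0.49. The 3 that rose, at 0.57 to 0.94, rose less far than the muscle, intestine and pharynx medians. Against the neuron median of 0.92, sgk-1 (0.94) was slightly above, and ist-1 (0.61) and akt-2 (0.57) were below.

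Other enzymes of phosphoinositide metabolism fell by small amounts. Of 14 such genes, aap-1 included, 12 fell and none rose (median −0.23), where 40.8% of all tested genes fell. In the top of the 4 level groups, which holds 12 of these 14, 71.5% of all genes fell. The smallest p belonged to ocrl-1, an inositol polyphosphate 5-phosphatase gene, which went from 125 ± 5.47 to 79.6 ± 2.43 CPM (−0.65), and to the related phosphatase gene cil-1 (−0.46). ppk-2 (−0.31), a phosphatidylinositol phosphate kinase gene, and mtm-3 (−0.28), a myotubularin lipid phosphatase gene, followed. These directions depend on scaling: with upper-quartile factors 5 of the 14 were called higher and 2 lower, and ppk-2 and mtm-3 no longer passed.

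Among regulators of the AKT and SGK kinases and of DAF-18, 9 of the 12 listed had enough reads, of which 6 fell and 1 rose (median −0.41). Of all tested genes 40.8% fell and 47.2% rose, and in the top level group, which holds 6 of these 9, 71.5% fell and 22.6% rose. sinh-1, which encodes the SIN1 subunit of the TOR complex that acts on SGK-1, fell from 53.2 ± 2.89 to 20.3 ± 0.496 CPM (−1.38). let-363, the TOR kinase gene, fell from 359 ± 11.3 to 208 ± 3.75 CPM (−0.79). eak-7 (−0.57) and pptr-1 (−0.46), whose product is a regulatory subunit of the phosphatase PP2A that acts on AKT-1, fell as well. The 1 that rose was eak-6, named after its values were seen, at 0.225 ± 0.111 and 0.462 ± 0.0927 CPM. It was no longer called with DESeq2 and when library 1 or 2 of EV control or library 2 of nol-56 RNAi was left out.

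Partners and modifiers of DAF-16 changed in both directions, with 13 of 22 lower (59.1%) and 7 higher (31.8%) and a median of −0.37. The shares over all tested genes were 40.8% and 47.2%, and over the top level group, which holds 15 of the 22, 71.5% and 22.6%. The nuclear import receptor gene imb-2 fell from 246 ± 7.87 to 118 ± 2.15 CPM (−1.06), and smk-1, whose product is needed for the effect of DAF-16 on lifespan, from 448 ± 20.3 to 209 ± 5.41 CPM (−1.10). swsn-1 (−1.04), a subunit gene of the SWI/SNF chromatin remodeller with which DAF-16 works, and par-5 (−0.98), whose product binds phosphorylated DAF-16 in the cytoplasm, fell too. ftt-2, the paralog of par-5, whose product also binds DAF-16, rose from 357 ± 5.91 to 471 ± 8.91 CPM (0.40), and so did pqm-1 (0.90), a transcription factor gene that acts in opposition to daf-16; both were named after their values were seen.

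Genes known to respond to DAF-2 signalling were higher whichever way they respond in daf-2 mutants. Of 25 genes of class I, those known to be higher in daf-2 mutants through DAF-16, 21 had enough reads, of which 19 rose and 2 fell (median 0.90). Of 13 genes of class II, known to be lower in daf-2 mutants, 11 had enough reads, of which 10 rose and none fell (median 0.93). Of all tested genes 47.2% rose. Intestine markers, beside them, had a median of 0.98. The part that intestinal expression plays in both counts was not tested.

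In class I, the ferritin gene ftn-1 rose from 13.4 ± 0.331 to 44.2 ± 1.47 CPM (1.71) and dod-6 from 73.2 ± 1.52 to 199.6 ± 14.6 CPM (1.45). The superoxide dismutase gene sod-3, the most used reporter of DAF-16 activity and named after its values were seen, was low, at 2.007 ± 0.465 and 4.03 ± 0.689 CPM (0.99, adjusted p = 1.49e-05). The 2 that fell were sip-1, which encodes a small heat shock protein, from 2767 ± 92.0 to 588 ± 20.4 CPM (−2.23), and lea-1, which encodes a protein of the late embryogenesis abundant family, from 1374 ± 48.6 to 588 ± 20.6 CPM (−1.23). These 2 carry much of the list, whose summed level went from 5707 to 6202 CPM in EV control down to 4672 to 4903 CPM in nol-56 RNAi although most of its genes rose. hsp-16.1, hsp-16.48 and hsp-16.49 had almost no reads and are near-identical copies of hsp-16.11 or of each other, so the values of this family are uncertain.

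In class II, the yolk protein genes vit-5, from 14791 ± 443 to 37208 ± 1910 CPM (1.33), and vit-2 (1.33) rose, as did dod-19 (1.38) and dod-23 (0.93). The vit genes resemble each other, so single values are uncertain. gcy-18 did not pass the threshold (0.03, adjusted p = 0.822).

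Upstream of the receptor, 26 of 40 insulin-like peptide genes had enough reads, of which 18 rose (69.2%) and 2 fell (median 0.95), and the summed level of all 40 went from 68.7 to 73.0 CPM up to 158 to 164 CPM. Of all tested genes 47.2% rose, and in the lowest level group and the one above it, which hold 16 and 8 of the 26, 56.6% and 69.0% rose. ins-19 rose from 16.08 ± 0.659 to 61.8 ± 2.07 CPM (1.94) and ins-7, an agonist of DAF-2 made in the intestine and elsewhere, from 10.9 ± 1.06 to 25.6 ± 1.10 CPM (1.23). In contrast, ins-2 fell from 4.42 ± 0.165 to 0.389 ± 0.188 CPM (−3.53, SE 0.23) and ins-34 from 4.86 ± 0.229 to 0.999 ± 0.0572 CPM (−2.28, SE 0.16). Both had few reads in the nol-56 RNAi libraries, 6 to 13 for ins-2 and 22 to 26 for ins-34, so the size of these falls is imprecise. All 8 genes of peptide processing and release rose (median 1.00), among them egl-21 (1.46), a carboxypeptidase gene, egl-3 (1.44) and aex-5 (1.05), proprotein convertase genes, and ida-1 (1.26), a dense-core vesicle gene. The share that rose was 47.2% over all tested genes and 22.6% over the top level group, which holds 5 of these 8. Neuron markers beside them had a median of 0.92.

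**Figure D5:**
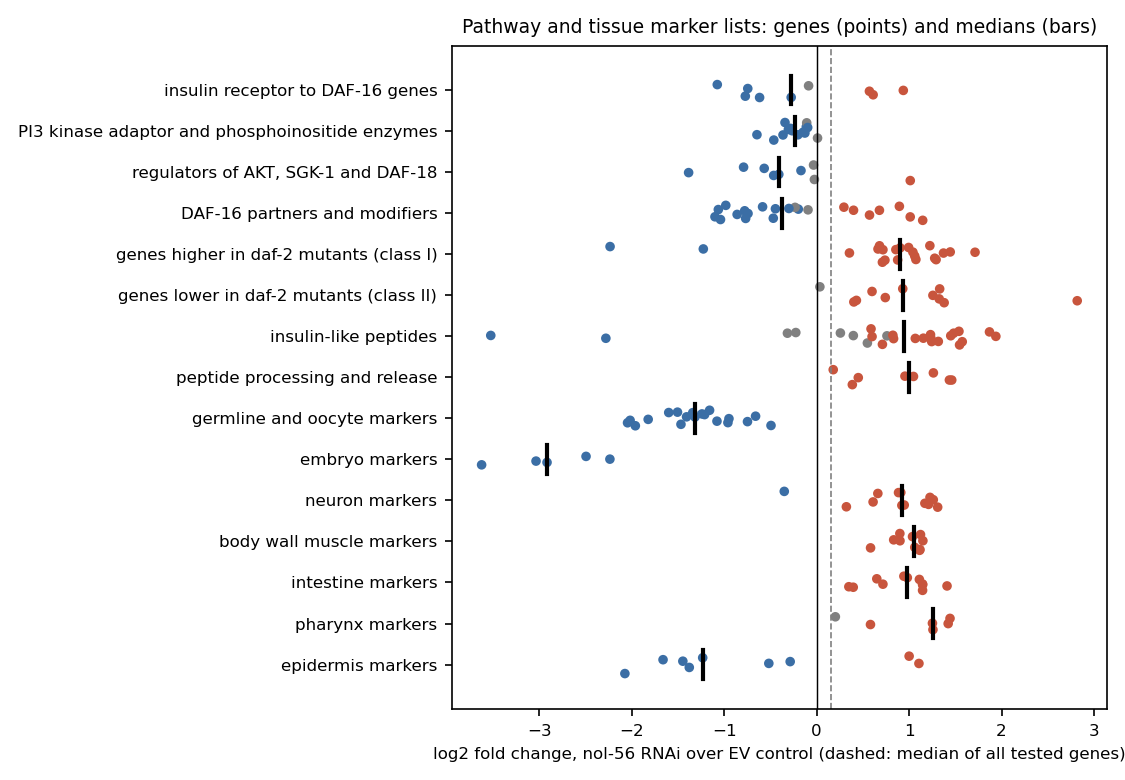
Log2 fold change of every tested gene (points) of each list, with list medians as black bars, 0 as a solid line and the median of all tested genes as a dashed line; red was called higher, blue lower and gray neither, with TMM factors. The pathway genes, the kinase regulators and the DAF-16 partners straddle 0 with medians of −0.41 to −0.28. The phosphoinositide genes span −0.65 to 0.01 with a median of −0.23, and with upper-quartile factors 5 of them are called higher. Class I, class II, peptide and most somatic lists have medians of 0.90 to 1.26.

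The genes whose pattern over the 6 libraries lay nearest to a pathway gene were sought among 8443 other genes that averaged at least 3 in log2 CPM, by the root mean square difference in log2 CPM after subtraction of the EV control mean. For daf-2 they were R148.3 (0.0103), trt-1 (0.0214) and pxf-1 (0.0219), for daf-18 R74.8 (0.0112), arid-1 (0.0138) and sqv-8 (0.0139), and for daf-16 myrf-2 (0.0175), gtf-2H3 (0.0213) and B0511.12 (0.0222). These distances are descriptions over 6 libraries that share 2 groups.

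The spread among control libraries had a common part. EV control library 1 held the highest control value for 8 of the 9 pathway genes, all but ist-1, against 34.9% of all tested genes. Without that library 5 pathway genes were still called lower and 3 higher. Some exons overlap genes on the opposite strand: 192 bases of age-1 (4.89% of its exon bases) are shared with B0334.10, 84 of daf-16 (2.28%) with the noncoding gene H36N01.5, 15 of pdk-1 with F21E9.2, and 8 of akt-1 with rop-1. Outside the 9, 136 bases of aap-1 (7.53%) are shared with Y110A7A.21, also on the opposite strand. Reads from those stretches may have been assigned to either gene if strand was not used in counting. The other 5 pathway genes have no such overlap.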

How the data were processed

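RNA was measured in 6 libraries, 3 EV control and 3 nol-56 RNAi, grouped and numbered by the sample titles. Per the labels' protocols, libraries were polyA-selected with a strand-marking kit and sequenced on a NovaSeq instrument. The authors deposited raw read counts of genes in each library, as whole numbers, and a normalized signal for 18086 genes. That signal equals each count over a library size factor (0.832 to 1.23) and was used only to find those factors. Tools in the submitters' processing notes, listed without roles, are DESeq2 1.36.0, HTSeq 2.01, TopHat2 2.1.1 and cutadapt 2.10, and the build is WBcel235. Whether counting used strand is not stated there.

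The counts were filtered with filterByExpr and, with TMM factors, entered into edgeR 4.0.16 in R 4.3.3 (quasi-likelihood, group as the only term), with Benjamini-Hochberg adjustment over all 14677 genes and a threshold of 0.05. Fold changes have EV control as the denominator. CPM used TMM-scaled library sizes, and RPKM the union of exon bases in the Ensembl 115 annotation of WBcel235, the build the notes name; log2 CPM had a prior count of 2. Ratios were tested with an exact permutation test. The fit was also run on simulated counts in which only a small part of the genes changed. In these data most genes moved, so that run does not show how the fit or the scaling behaves here. Counts of PCR-amplified reads are not counts of independent molecules, and the labels do not say whether the pools were separate cultures, so the spread behind each p-value may be technical. A chi-square test over genes found no pair of libraries in a group alike enough to be the same library sequenced again (2.08 to 6.39 per degree of freedom). It cannot tell whether libraries of a group came from the same RNA or culture. The fit put the common coefficient of variation between libraries of a group at 3.93%. Alternatives were RLE and upper-quartile factors, library totals, no filter, genes above 5 CPM in at least 3 libraries, DESeq2 1.42.0, limma-voom (limma 3.58.1), a block for the replicate number, leaving out each library and, for ratios, a pseudocount of 1 CPM.

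The pathway genes and lists were chosen with earlier results of these data known. The lists were written from textbook knowledge. The text names nol-56, the 9 pathway genes, aap-1 and the 3 genes most alike to daf-2, daf-18 and daf-16. It also names up to 4 genes of smallest p in each pathway list and 2 in each tissue list. Other genes of the lists, among them gcy-18 and the hsp-16 genes, were named after their values were seen.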

Additional observations from a re-analysis of the deposited data

How the results depend on the processing

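Of the 9 pathway genes, 7 kept their direction and their call under all 14 alternatives: age-1 (−1.21 to −0.83), daf-18 (−0.91 to −0.52), pdk-1 (−0.89 to −0.50), daf-2 (−0.76 to −0.37), ist-1 (0.47 to 0.86), akt-2 (0.43 to 0.82) and sgk-1 (0.80 to 1.18). akt-1 lost its call with upper-quartile factors alone (−0.0275), and daf-16 was called with RLE factors (−0.23), DESeq2 (−0.23), upper-quartile factors (0.16) and without EV control library 3; over the libraries left out it ranged from −0.15 to −0.05. Its adjusted p ranged from 7.65e-05 to 0.876. aap-1 was reversed with RLE factors (−0.13) and DESeq2 (−0.13). Of all genes, 4508 were higher with genes above 5 CPM alone, where 9931 were tested. Phosphoinositide genes were called higher and lower in 5 and 2 cases with upper-quartile factors, 1 and 7 with library totals, and 1 and 7 with genes above 5 CPM alone, where 5 insulin-like peptide genes were higher and 0 lower because few have that level. Regulators of the kinases were higher in 3 cases with upper-quartile factors, 2 with no filter, 0 with DESeq2 and 0 to 1 with a library left out. Of all calls 53.6% were higher with TMM, 49.6% with RLE and 62.4% with upper-quartile factors. Ratios kept their sign under every library left out and with a pseudocount. Causes were not tested.

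Same-numbered libraries of the groups did not deviate together (correlations of −0.0351, −0.0106 and 0.000394). Such correlations cannot show whether same-numbered pools were grown or prepared together. With the replicate block 3 pathway genes were higher and 5 lower, and 6893 and 5964 of all genes. Depth limited the insulin-like peptides, of which only 26 of 40 had enough reads to be tested. Among the 9 pathway genes it bears most on ist-1, with 184 to 330 reads per library.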

Other observations

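Further genes around the pathway, chosen after their values were seen, passed the same test. Among the transcription factors and cofactors that work with DAF-16 or beside it, hsf-1, the heat shock factor gene, fell from 167 ± 12.8 to 91.7 ± 2.69 CPM (log2 fold change −0.86), cbp-1, a histone acetyltransferase gene, from 575 ± 30.5 to 343 ± 3.93 CPM (−0.74), and sir-2.1, a sirtuin deacetylase gene, from 109 ± 3.39 to 63.3 ± 1.23 CPM (−0.78). In contrast, bar-1, a β-catenin gene, rose from 13.99 ± 1.14 to 31.2 ± 0.562 CPM (1.15) and daf-12, the gene of the steroid hormone receptor, from 39.8 ± 0.520 to 80.3 ± 2.97 CPM (1.01).

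Of the class I genes that rose, further ones are given here; sip-1 (−2.23) and lea-1 (−1.23) of the same list fell. The metallothionein genes mtl-1 and mtl-2 rose by 1.28 and 1.37 on the log2 scale, the catalase genes ctl-1 and ctl-2 by 1.06 and 1.04, the lysozyme genes lys-7 and lys-8 by 1.07 and 0.90, and icl-1, which encodes the enzyme of the glyoxylate cycle, by 0.74. mtl-1 went from 18.1 ± 2.06 to 43.7 ± 3.94 CPM. The neuronal peptide gene daf-28, an agonist of DAF-2, rose from 3.17 ± 0.281 to 7.09 ± 0.970 CPM (1.15). Muscle, intestine and neuron markers rose in the same libraries, with medians of 1.05, 0.98 and 0.92, and their part in these changes was not tested.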
